A study of Drosophila melanogaster with 12 samples.

Results

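Drosomycin and Metchnikowin are antimicrobial peptides of *Drosophila*, and this account follows 8 genes, *Drs* (Drosomycin), its relatives *Drsl1*, *Drsl2*, *Drsl3*, *Drsl4*, *Drsl5* and *Drsl6*, and *Mtk* (Metchnikowin), across heads of control and tau transgenic flies. They were chosen by gene name and make up 8 of the 13962 genes, and 8 of the 30738 isoforms, for which transcript abundance was given. Each gene had a single annotated isoform, so that the isoform value and the gene sum are the same number. Control flies were *elav-Gal4/+* and tau transgenic flies were *elav-Gal4/+;UAS-tauR406W/+*, at day 10 of adulthood, with equal numbers of males and females. Both genotypes therefore carried the pan-neuronal elav driver, and only the tau flies carried the transgene for human tau with the R406W substitution, which is associated with frontotemporal dementia. Each library came from a pool of 500 heads, and there were 3 libraries per genotype. PolyA-enriched RNA was read directly on nanopores, without a copy made by PCR, and the short-read control libraries of the series were not analysed here. The table has no row for human tau or GAL4, so the transgenes could not be checked from it.

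The fly answers infection with peptides that are secreted into the haemolymph, mainly by the fat body, and that are also made locally by epithelia. The Toll pathway, which is activated when the cytokine Spätzle (*spz*) binds the receptor Toll (*Tl*), releases the transcription factors Dif and Dorsal (*dl*) from their inhibitor Cactus (*cact*). The Imd pathway ends at the transcription factor Relish (*Rel*). *Drs* encodes a cysteine-rich peptide that acts against fungi and is the usual readout of Toll in the adult fat body. *Mtk* encodes a proline-rich peptide that acts against fungi and bacteria and can be induced through both pathways. The *Drsl* genes encode Drosomycin-like peptides.

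Abundance was measured in TPM, here the number of reads assigned to a transcript out of 1000000 assigned reads. It is not divided by transcript length, and levels of different genes are set side by side as shares of reads. Whether transcripts of different length were recovered equally was not tested. The number of assigned reads was 910700, 759740 and 573001 in control replicates 1 to 3 and 684408, 1329914 and 1024721 in tau replicates 1 to 3. A floor of 3 reads, under which a transcript was not told apart from 0, corresponded to between 2.26 and 5.24 TPM, depending on the library. Every value of the 8 genes was a whole number of reads in every library, with the largest offset from a whole read being 1.93e-05 reads. None of their reads had therefore been shared out between similar transcripts. Intervals and floors cover counting error only.

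The family lies on chromosome arm 3L of the Release 6 assembly (BDGP6.54 annotation), over 55.59 kb, and all of its genes have a single exon. *Drsl2* (3314349 to 3314681), *Drsl3* (3314996 to 3315355), *Drsl4* (3315620 to 3315942) and *Drsl5* (3316781 to 3317144) follow each other on the plus strand, with gaps of 314, 264 and 838 nt between them. *Drsl1* (3335579 to 3335788) and *Drsl6* (3336032 to 3336418) lie 18434 nt further on, on the minus strand, 243 nt apart. *Drs* (3369556 to 3369942, plus strand) lies a further 33137 nt away, with the gene *kst* in between. *Mtk* is elsewhere, on chromosome arm 2R (15408846 to 15409113, plus strand), and also has a single exon. The transcripts are short, from 210 nt for *Drsl1* to 387 nt for *Drs* and *Drsl6*. The annotated coding sequences hold 69 to 72 codons in the family and 52 codons in *Mtk*.

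Of the 8 genes, 4 were abundant in heads, 2 were at or under the floor and 2 were listed at 0 in all 6 libraries. *Drs*, *Drsl5* and *Mtk* were higher in tau flies than in controls, and *Drsl4* did not pass the test. Together, the 8 genes took 0.321%, 0.378% and 0.371% of all assigned reads in control replicates 1 to 3 and 0.657%, 0.625% and 0.594% in tau replicates 1 to 3. Each tau library was above each control library in this share, which in sum was 3567 ± 313 TPM in controls and 6252 ± 317 TPM in tau flies (SD, n = 3). The libraries were made from whole heads, in which fewer cells of a type and less RNA per cell cannot be told apart.

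**Figure D1:**
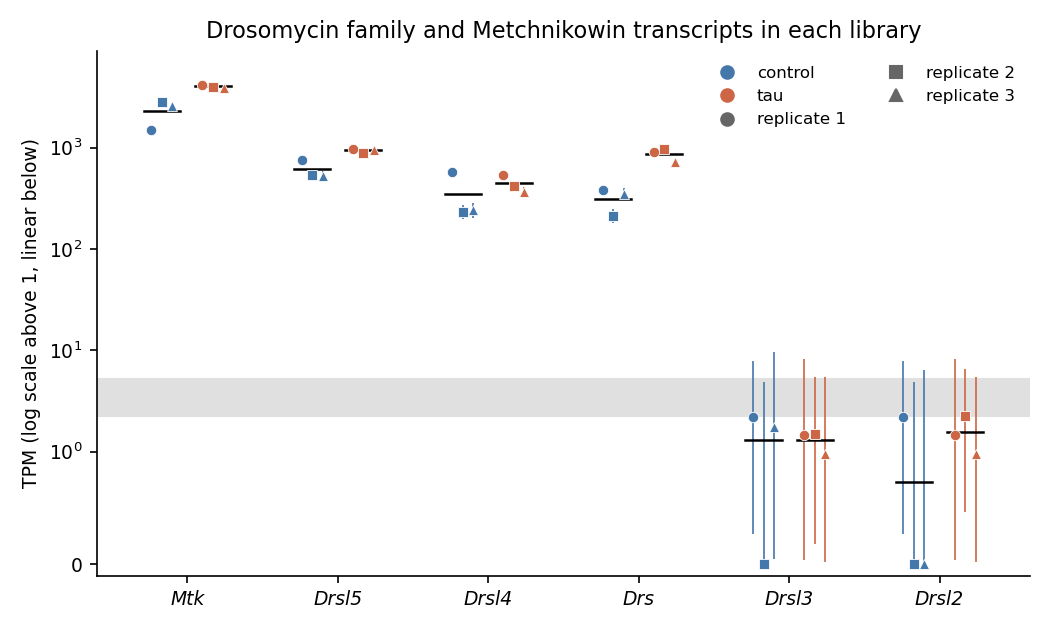
Abundance of *Mtk*, *Drsl5*, *Drsl4*, *Drs*, *Drsl3* and *Drsl2* in TPM (log scale above 1 and linear below) in each of the 3 control and 3 tau libraries, with replicates as symbols, exact 95% Poisson intervals as bars, group means as black lines and the range of the 3-read floors (2.26 to 5.24 TPM) as a grey band. The tau libraries lie above all controls for *Mtk*, *Drsl5* and *Drs*, overlap with them for *Drsl4*, and *Drsl3* and *Drsl2* stay at or under the floor; *Drsl1* and *Drsl6*, at 0 in all libraries, are not drawn.

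*Drs* showed the largest difference of the 8 genes. Its abundance was 379, 212 and 351 TPM in control replicates 1 to 3 and 897, 965 and 715 TPM in tau replicates 1 to 3, from between 161 and 1284 reads per library. The lowest tau library was thus well above the highest control, and the counting error of a single library was at most 7.88% of its value. The mean rose from 314 ± 89.4 to 859 ± 129 TPM (SD, n = 3). The log2 fold change was 1.48 (standard error 0.194, 95% interval 1.06 to 1.90), which is 2.80-fold on the log2(TPM + 1) scale. With limma on gene sums and Benjamini-Hochberg adjustment over all 8960 genes tested, the adjusted p was 0.00227, and it was 0.00851 in the fit of the 12800 isoforms. By p, *Drs* ranked 13 among the genes that were higher in tau flies. The log2 fold change stayed between 1.22 and 1.64 when each library was left out in turn, with an adjusted p of at most 0.0175 in the gene fit. The call was lost without the variance trend (adjusted p = 0.224) and when control replicate 3 and tau replicate 1, the shallowest library of each genotype, were both left out (log2 fold change 1.55, adjusted p = 0.0627). With no filter on low values it held at the gene level (adjusted p = 0.0378) and not at the isoform level (0.228).

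*Mtk* was the most abundant of the 8 transcripts in every library. It reached 1501, 2800 and 2586 TPM in controls and 4158, 3970 and 3906 TPM in tau flies. Control replicate 1 was far below the other controls, while the SD of the tau libraries was 3.26% of their mean, against 30.3% for the controls. The mean rose from 2296 ± 696 to 4012 ± 131 TPM (SD, n = 3), and with it the place of *Mtk* among all genes by level went from 89 in controls to 17 in tau flies. The log2 fold change was 0.86 (standard error 0.176, 95% interval 0.47 to 1.24), with an adjusted p of 0.0344 in limma on gene sums. In the isoform fit the same values gave an adjusted p of 0.0718, so that *Mtk* passed at the level of genes and not at that of isoforms.

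The call on *Mtk* depended on the libraries in the fit, although its direction did not. Without control replicate 1 the log2 fold change was 0.58 (adjusted p = 0.00613), and without control replicate 2 it was 1.02 (adjusted p = 0.016). The adjusted p was above the threshold without control replicate 3 (0.102), tau replicate 1 (0.0796), tau replicate 2 (0.0739) or tau replicate 3 (0.101), where the log2 fold change lay between 0.83 and 0.97. It was also just above the threshold with a filter at a mean of 20 TPM (adjusted p = 0.0505) and with scaling by the median of ratios (adjusted p = 0.0554). The call was lost by more with no filter on low values (adjusted p = 0.243), without the variance trend (0.569) and without both control replicate 3 and tau replicate 1 (0.274).

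*Drsl5* was the most abundant gene of the Drosomycin family in every control library. It was at 754, 541 and 527 TPM in controls and at 973, 888 and 947 TPM in tau flies, again with all tau libraries above all controls. The lowest tau library was 1.18 times the highest control, replicate 1, which stood well above the other controls. The mean rose from 607 ± 127 to 936 ± 43.5 TPM (SD, n = 3), with a log2 difference of 0.64 (standard error 0.136, 95% interval 0.35 to 0.94). The adjusted p was 0.0410 in limma on gene sums and 0.0698 in the isoform fit. Without control replicate 1 the log2 fold change was 0.81 (adjusted p = 0.00397). Leaving out control replicate 2 (adjusted p = 0.149), control replicate 3 (0.28), tau replicate 1 (0.104), tau replicate 2 (0.0799) or tau replicate 3 (0.156) took *Drsl5* over the threshold, with log2 fold changes of 0.55 to 0.68. The adjusted p was also above it with no filter on low values (0.185), without the variance trend (0.597) and without both control replicate 3 and tau replicate 1 (0.497).

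*Drsl4*, which lies 838 nt from *Drsl5* on the same strand, did not pass the test. Its abundance was 570, 232 and 243 TPM in controls and 539, 420 and 366 TPM in tau flies. Control replicate 1 was the highest of all 6 libraries, and the groups overlapped. The means were 348 ± 192 and 442 ± 88.6 TPM (SD, n = 3), and the log2 fold change was 0.46 (standard error 0.276, 95% interval -0.14 to 1.05) with an adjusted p of 0.772 in limma on gene sums. The exact permutation test on its TPM values, with 10 possible splits, gave p = 0.6 (two-sided). The interval includes 0 as well as the change of *Drsl5*. Without control replicate 1 alone, the log2 fold change was 0.88 with an adjusted p of 0.0257 (limma), and *Drsl4* then passed the threshold.

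*Drsl2* and *Drsl3* were represented by very few reads. *Drsl2* had 2, 0 and 0 reads in controls and 1, 3 and 1 reads in tau flies, or at most 2.26 TPM, and the groups did not separate (exact permutation p = 0.3, two-sided). *Drsl3* had 2, 0 and 1 reads in controls and 1, 2 and 1 in tau flies (exact permutation p = 1, two-sided). None of these values was above the 3-read floor of its library, so no fold change was computed, and a difference between genotypes was not detectable at this depth. *Drsl1* and *Drsl6* had 0 reads in all 6 libraries, which allows an abundance of up to 3 reads per library, between 2.26 TPM in tau replicate 2 and 5.24 TPM in control replicate 3.

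With an adjusted p of 0.05 or less as the threshold, 3 of the 8 genes were higher in tau flies at the level of genes (*Drs*, *Mtk* and *Drsl5*) and 1 was higher at the level of isoforms (*Drs*). Across all 8960 genes tested, 57 were higher (0.636%) and 97 passed in either direction (1.08%). Of the 12800 isoforms tested, 63 were higher (0.492%). *Drs*, *Mtk* and *Drsl5* were also the genes of the group in which all 3 tau libraries exceeded all 3 controls, as did 546 of all genes tested (6.09%). The smallest p that the exact permutation test can reach in this design is 0.1, and each of these 3 genes reached it. That count of 3 genes called at the gene level fell to 1 without control replicate 3 or without any of the tau libraries, was 2 without control replicate 2 and was 4 without control replicate 1. The 4 remaining *Drsl* genes were under the minimum mean of 5 TPM and were not in the fit. The median log2 fold change over all genes tested was -0.036.

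**Figure D2:**
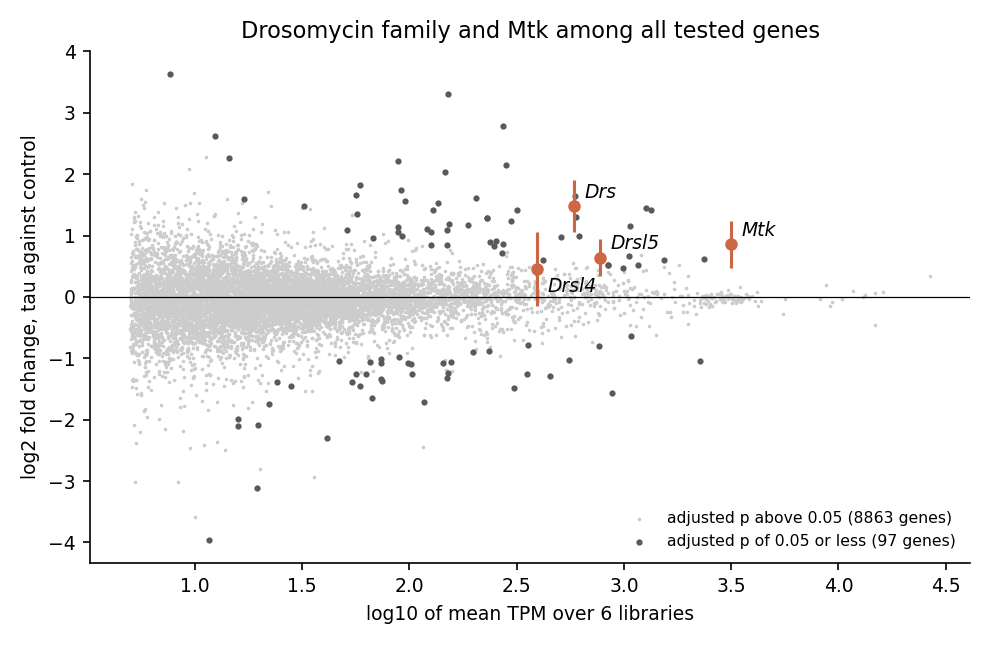
Log2 fold change of tau against control (vertical axis) against the log10 of mean TPM over the 6 libraries (horizontal axis) for the 8960 genes tested, with the 97 genes at an adjusted p of 0.05 or less in dark grey. *Drs*, *Mtk*, *Drsl5* and *Drsl4* are in orange with 95% intervals, which exclude 0 for the first 3 and include it for *Drsl4*.

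The order of the 4 detected genes by level was not the same in both genotypes. In controls, *Mtk* (2296 TPM) was followed by *Drsl5* (607 TPM), *Drsl4* (348 TPM) and *Drs* (314 TPM). *Drsl4* and *Drs* overlapped there. The ranges of *Drsl5* and *Drsl4* also overlapped, although *Drsl5* was above *Drsl4* within each control library, and *Mtk* stood above the rest in every library. In tau flies, *Mtk* (4012 TPM) was followed by *Drsl5* (936 TPM), *Drs* (859 TPM) and *Drsl4* (442 TPM). *Drsl5* and *Drs* overlapped in tau flies, and *Drs* was above *Drsl4* in each library.

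Ratios within a library do not depend on its depth. *Drs* made up 22.2%, 21.5% and 31.3% of Drosomycin family transcripts in control replicates 1 to 3 and 37.2%, 42.4% and 35.2% in tau replicates 1 to 3. The tau libraries were all above the controls in this share. The ratio of *Drs* to *Drsl5* was 0.502, 0.392 and 0.666 in controls and 0.922, 1.09 and 0.756 in tau flies, and that of *Drs* to *Drsl4* was 0.665, 0.915 and 1.45 in controls and 1.66, 2.30 and 1.95 in tau flies. On the log2 scale, the *Drsl5* to *Drs* ratio fell by 0.84 and the *Drsl4* to *Drs* ratio fell by 1.03 in tau flies, without overlap between genotypes. An exact permutation test gave p = 0.1 for both, the smallest p possible, and 0.3 after adjustment over the 6 pairs compared, a design in which no pair could pass the threshold.

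The other ratios overlapped between genotypes. *Drsl5* to *Drsl4* differed by 0.18 (exact permutation p = 0.7), *Mtk* to *Drsl5* by 0.21 (exact p = 1), *Mtk* to *Drsl4* by 0.40 (exact p = 0.9) and *Mtk* to *Drs* by -0.63 (exact p = 0.4) on the log2 scale. *Mtk* was 3.96, 13.2 and 7.37 times as abundant as *Drs* in controls and 4.64, 4.11 and 5.46 times in tau flies. The controls thus spread widely in this ratio, and control replicate 1 lay next to the tau libraries.

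**Figure D3:**
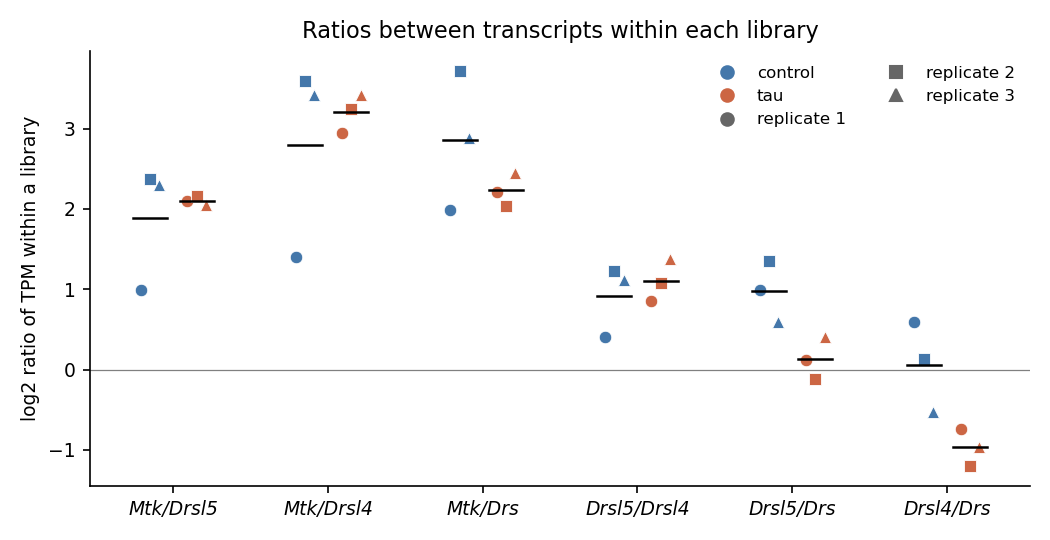
Log2 ratio of TPM for the 6 pairs of *Mtk*, *Drsl5*, *Drsl4* and *Drs* within each control and tau library, with replicates as symbols and group means as black lines. The genotypes separate for *Drsl5* to *Drs* and *Drsl4* to *Drs*, and control replicate 1 is the lowest library for each ratio of *Mtk* to another transcript.

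Control replicate 1 stood apart from the other controls. The paper's quality metrics give it the lowest share of full-length reads of the 6 libraries. Among the controls it had the lowest *Mtk* and the highest *Drs*, *Drsl4* and *Drsl5*, so that *Mtk* made up 46.8% of the 8 transcripts in it and 69.7% to 74.0% in the other controls. It was also the highest control for 44.2% of all genes tested, so that this order of *Drs*, *Drsl4* and *Drsl5* does not set them apart. Of the 12 other antimicrobial peptide genes tested, 10 (83.3%) were at their lowest of all 6 libraries in control replicate 1, as were 10.2% of all genes tested. The genes of Bomanins, short secreted peptides induced through Toll, did not share this order. Of 12 tested, 3 were at their lowest of all 6 libraries in control replicate 1. For 6 of the 12, control replicate 1 was the highest control. Transcripts of 6 digestive enzymes of the gut summed to 4425 TPM in control replicate 1 and to 2491 and 3119 TPM in control replicates 2 and 3. In tau flies they summed to 1575 to 2195 TPM. All 6 gut markers had a log2 fold change below 0, and all 6 had an unadjusted p below 0.05 in limma. After adjustment, the trypsin gene *betaTry* (-1.29, adjusted p = 0.00442) and the protease gene *Jon65Aiii* (-1.02, adjusted p = 0.0149) passed as lower in tau flies. The part of these transcripts, or of the share of full-length reads, in the differences of *Drs*, *Mtk* and *Drsl5* was not tested.

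The neighbours of the family on 3L did not pass the test. Within 10 kb of the 55.59 kb that holds the *Drs* and *Drsl* genes there were 14 other annotated genes, of which 10 were tested. None passed with limma, 1 had an unadjusted p below 0.05, and the log2 fold changes ranged from -0.27 to 0.47. *Gtpx*, between *Drsl5* and *Drsl1*, had the lowest adjusted p (log2 fold change 0.47, adjusted p = 0.154). The genes on either side of *Drs*, *kst* (-0.27, adjusted p = 0.956) and *Ythdc1* (-0.15, adjusted p = 0.968), did not pass either. *Drs* and *Drsl5* were thus the only genes of this stretch that passed, among those tested.

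**Figure D4:**
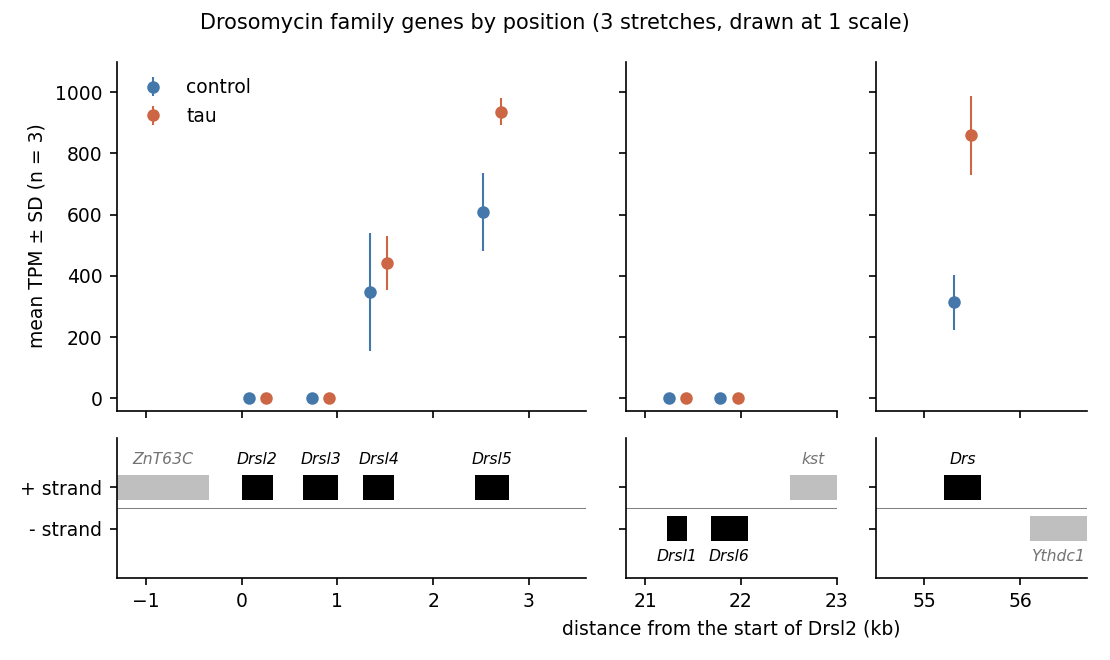
Mean TPM ± SD (n = 3) of the 7 Drosomycin family genes in controls and tau flies (top) over their positions in kb from the start of *Drsl2* (bottom), in 3 stretches at a common scale, with family genes in black and other genes in grey on the plus or minus strand. *Drsl5* and *Drs*, at 936 and 859 TPM in tau flies, lie in the first and the last stretch, and *Drsl1* and *Drsl6*, between them, are at 0.

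The other antimicrobial peptide genes were measured beside the family. Of 12 tested, 9 were higher in tau flies and 0 were lower, with a median log2 fold change of 1.38 against -0.036 over all genes. All 12 had every tau library above every control. Over all genes tested, 0.636% were higher and 6.09% had every tau library above every control. Among the genes of attacins, glycine-rich peptides that act against Gram-negative bacteria, *AttA* changed by 1.64 (290 ± 63.4 to 893 ± 58.3 TPM, adjusted p = 0.000213) and *AttB* by 1.42 (adjusted p = 0.000496) on the log2 scale. The diptericin genes *DptA* (1.30, adjusted p = 0.0155) and *DptB* (1.45, adjusted p = 0.00339), the drosocin gene *Dro* (1.41, adjusted p = 0.00158) and the defensin gene *Def* (0.85, adjusted p = 0.0236) were also higher. So were the cecropin genes *CecA1* (1.05, adjusted p = 0.00984), *CecA2* (1.41, adjusted p = 0.0176) and *CecC* (1.34, adjusted p = 0.00714). *AttC* (0.68, adjusted p = 0.124), *AttD* (1.59, adjusted p = 0.0764) and *CecB* (1.22, adjusted p = 0.553) did not pass. The change of *Drs* lay within the range of this list, those of *Drsl5* and *Drsl4* lay below its lowest value of 0.68, and that of *Mtk* was next to that of *Def*. Reads of *AttB* and *DptB* had in part been shared between similar transcripts, so their values are less certain. Without tau replicate 3 the count of 9 fell to 5, and without control replicate 3 and tau replicate 1 it fell to 2.

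Bomanins, short secreted peptides that are induced through Toll, had 4 of 12 tested genes higher and 0 lower, with a median log2 fold change of 0.50. Of all genes tested, 0.636% were higher. The 4 were *BomBc1* (1.74, adjusted p = 0.0179), *BomS1* (1.16, adjusted p = 0.00926), *BomS2* (0.62, adjusted p = 0.0149) and *BomS3* (0.52, adjusted p = 0.0236). For 9 of the 12, every tau library was above every control, as for 6.09% of all genes tested. *BomS1* was at 962, 540 and 534 TPM in controls and at 1558, 1546 and 1288 TPM in tau flies. The count of 4 Bomanin genes fell to 0 without control replicate 3 (8 at an unadjusted p below 0.05 in limma) and to 1 without tau replicate 2.

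Transcripts of the signalling genes did not pass the test. Of the genes upstream of Toll (recognition proteins and the protease cascade that cleaves Spätzle), 13 of 15 were tested and 0 passed with limma (1 at an unadjusted p below 0.05, median log2 fold change 0.056). Of the 10 genes for Toll and the proteins that act below it, 0 passed (0 at an unadjusted p below 0.05, median 0.018). Of the 17 Imd pathway genes, 16 were tested and 0 passed (2 at an unadjusted p below 0.05, median 0.14). All 3 tau libraries exceeded all 3 controls for 2 of 13, 1 of 10 and 2 of 16 tested genes of these lists, *spz* among them, beside 6.09% of all genes. *spz* was at 30.5 ± 5.19 TPM in controls and 40.1 ± 0.797 TPM in tau flies (log2 fold change 0.40, adjusted p = 0.749). *Tl* was at 28.2 ± 7.05 and 27.9 ± 5.39 TPM (-0.01, adjusted p = 0.999), and *cact*, the inhibitor gene of Dif and Dorsal, at 119 ± 5.59 and 126 ± 16.5 TPM (0.08, adjusted p = 0.964).

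The transcription factor genes did not pass either. *Dif* was at 43.4 ± 6.18 TPM in controls and 36.8 ± 4.87 TPM in tau flies (-0.23, adjusted p = 0.899). *dl* (0.26, adjusted p = 0.91), *Rel* (0.19, adjusted p = 0.868) and *imd*, the adaptor gene of the Imd pathway (0.36, adjusted p = 0.857), also gave no call. Transcript levels do not measure the activity of the proteins.

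**Figure D5:**
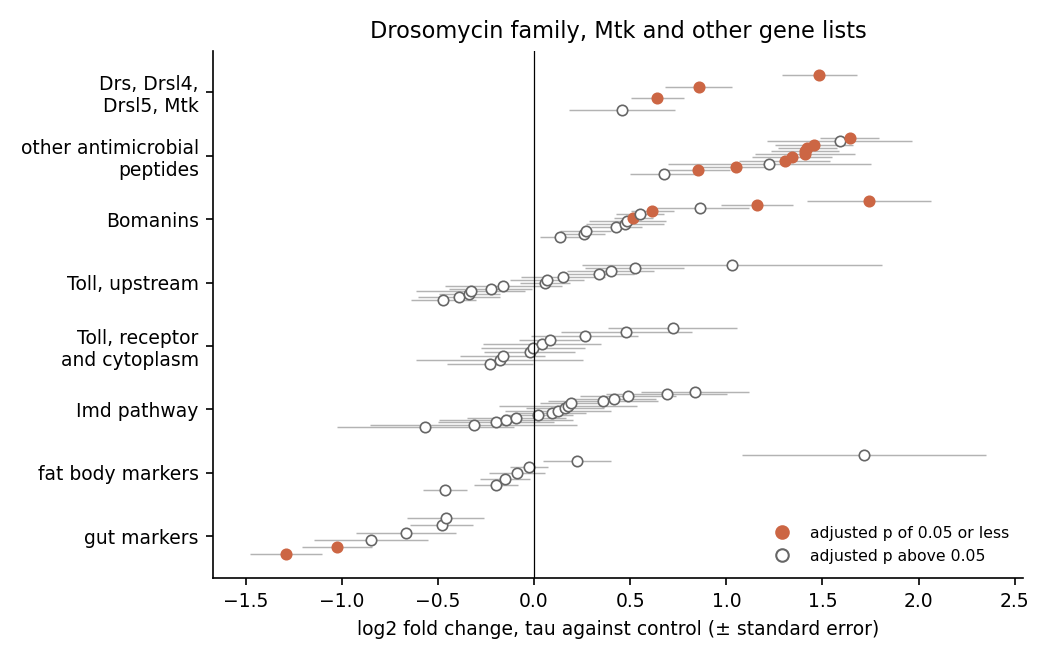
Log2 fold change of tau against control (horizontal axis, bars are standard errors) for each tested gene of the Drosomycin family and *Mtk*, other antimicrobial peptides, Bomanins, 3 lists of signalling genes, fat body markers and gut markers. Filled points passed the threshold, which 3 of 4, 9 of 12 and 4 of 12 genes of the first 3 lists did, upward, and 2 of 6 gut markers did, downward.

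Markers of the tissues in a head were read beside these results. Of 9 fat body markers, 7 were tested and 0 passed with limma (2 at an unadjusted p below 0.05, in opposite directions). Of the 7, 2 had a log2 fold change above 0, and the median was -0.087. They summed to between 35699 and 43829 TPM in controls and between 28280 and 37869 TPM in tau flies, most of it from the yolk protein genes. *Fbp2* was at 0 in all libraries, *Fbp1* was at 0 to 2.20 TPM, and *Lsp2* was at 22.0, 5.26 and 3.49 TPM in controls and 51.1, 39.9 and 9.76 TPM in tau flies (1.72, adjusted p = 0.411). *Yp3* went the other way, from 17096 to 12444 TPM (-0.46, adjusted p = 0.0875 in limma), with every tau library below every control. Of 7 haemocyte markers, 6 were tested and 0 passed (0 at an unadjusted p below 0.05), with sums of 227 to 291 TPM in controls and 218 to 302 TPM in tau flies. Neuronal (5 tested) and glial (6 tested) markers gave 0 calls, with 0 at an unadjusted p below 0.05. *elav* itself was at 0 to 2.63 TPM and was not tested. Photoreceptor markers summed to 32727 to 36460 TPM in controls and 38229 to 45061 TPM in tau flies. Of 7 tested, 1 passed with limma, the rhodopsin gene *Rh4* (0.59, adjusted p = 0.00825), and 4 had an unadjusted p below 0.05. These 4, the rhodopsin genes *ninaE*, *Rh3*, *Rh4* and *Rh5*, had every tau library above every control. The log2 fold changes of *trp*, *norpA* and *Arr2* lay between -0.08 and -0.03. The part of tissue composition in the changes of *Drs*, *Mtk* and *Drsl5* was not tested.

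The genes whose profile over the 6 libraries was most like each of the 4 detected genes were found from the root mean square difference of centred log2(TPM + 1) values, for which a smaller value means a closer likeness. For *Mtk* these were *PGRP-SB1*, a peptidoglycan recognition protein gene (0.084, log2 fold change 0.99, adjusted p = 0.0263), *AttC* (0.107) and *CG13641* (0.129), against a median of 0.646 over all genes. For *Drs* they were the lysozyme gene *LysD* (0.174), *Mthfs* (0.228) and *Acp54A1* (0.249), against a median of 0.874. *LysD* rose from 178 to 420 TPM (adjusted p = 0.00181), *Mthfs* by 1.62 on the log2 scale (adjusted p = 0.000319) and *Acp54A1* from 95.1 to 203 TPM (adjusted p = 0.0149). Profiles include the difference between genotypes, so genes near *Drs* or *Mtk* were bound to rise as well. Their fold changes, adjusted p and distances below the median follow from how they were picked and are not separate results. The closest to *Drsl5* were *CG41099* (0.047), *antdh* (0.073) and *Psf2* (0.084), and to *Drsl4* *CG4984* (0.120), *CG10841* (0.133) and *CG30016* (0.143), none of which passed the test. Group means of *Psf2*, *CG4984*, *CG10841* and *CG30016* were only 4.68 to 11.1 TPM, near the floor, so few reads underlie their likeness.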

How the data were processed

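Direct RNA libraries of 3 control and 3 tau pools of heads were analysed, and groups were taken from the labels. Per the paper's methods, the authors called bases with Guppy, removed reads of low quality, aligned the rest to the FlyBase transcriptome with minimap2, keeping secondary alignments, and estimated abundance with NanoCount. The deposited values are TPM per isoform and sum to 1000000 in each library. The authors also deposited DESeq2 results (mean, log2 fold change, standard error, statistic and p-values), which were not used. The most frequent TPM value above 0 in each library was taken as a single read, and reads were worked out from it. Between 40.5% and 42.7% of values above 0 were whole reads (tolerance 0.001 reads), so no count test was run.

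Features with a mean of at least 5 TPM were tested on log2(TPM + 1) in R (v4.3.3) by limma (v3.58.1; lmFit, then eBayes with trend), two-sided, with all 6 libraries and no covariate, for gene sums and for isoforms. P-values were adjusted by Benjamini-Hochberg over all features tested. Exact permutation tests over samples were two-sided. The limma fit was also run on simulated whole reads with the same spread set for all genes. That run does not tell how the fit behaves with the fractional values and the spread of these libraries. Python (v3.11.15), pandas (v2.3.3) and scipy (v1.17.1) were used for the rest. The paper describes the 3 libraries of each genotype as biological replicates. It does not say whether the pools came from separate crosses, so P-values measure the spread between libraries. Of the 30738 isoforms, 30718 were found in the Ensembl annotation used for positions.

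The 8 genes and all gene lists were chosen with earlier results of these data known. Genes were named by a rule: the 8 genes, every gene of the signalling and effector lists past the threshold, *spz*, *Tl*, *cact*, *dl*, *Dif*, *imd* and *Rel*, and the 3 nearest profiles of each tested gene. *AttC*, *AttD*, *CecB*, *Gtpx*, *kst*, *Ythdc1* and the tissue markers were named after their values were seen. Alternatives were the pseudocount, the filter, scaling by the median of ratios, array weights, no variance trend, the replicate number as a block and leaving out libraries. Leaving out control replicate 3 with tau replicate 1, and the counts of listed genes under each alternative, were added after seeing the data.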

Additional observations from a re-analysis of the deposited data

How the results depend on the processing

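Neither *Drs*, *Drsl5*, *Drsl4* nor *Mtk* reversed its direction under any alternative. Pseudocounts of 0.5 and 5 moved no count of calls past 1.5 times, and scaling by the median of ratios moved the median of all genes from -0.036 to -0.00052. With no filter on low values, 0 of 28413 isoforms passed in limma (1744 at an unadjusted p below 0.05), as did 42 genes, 1 of the genes described at the gene level and 0 at the isoform level, 5 other antimicrobial peptide genes and 0 Bomanin genes (9 at an unadjusted p below 0.05). More low features enter the adjustment there. Without the variance trend, 5 isoforms, 4 genes, 0 of the genes described in either fit and 0 other antimicrobial peptide or Bomanin genes passed (3, 12 and 6 at an unadjusted p below 0.05). Without control replicate 3 and tau replicate 1, 13 isoforms and 11 genes passed, with 0 of the genes described (3 at an unadjusted p below 0.05), 2 other antimicrobial peptide genes and 0 Bomanin genes (8). That fit has 4 libraries. At the isoform level, 2 of the genes described passed with a filter at 20 TPM and 3 with array weights.

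Leaving out each library in turn gave 25 to 100 isoforms, 29 to 105 genes, 1 to 4 of the genes described in either fit, 5 to 10 other antimicrobial peptide genes and 0 to 5 Bomanin genes. Isoforms fell to 25 without control replicate 3 and to 40, 55 and 29 without tau replicates 1, 2 and 3, and genes fell to 29 without control replicate 3 and to 50 without tau replicate 3. The cause of these shifts was not tested.

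Same-numbered libraries did not deviate together over the genes tested (r = -0.0027, 0.065 and -0.072). This cannot tell whether they were prepared together. *Drsl4* was highest in replicate 1 of both genotypes, and its standard error at the gene level went from 0.276 to 0.178 with the replicate number as a block (limma, adjusted p = 0.585). With the replicate block, 100 isoforms and 77 genes passed, 2 of the genes described at the gene level (*Drsl5* then had an adjusted p of 0.0524) and 3 at the isoform level.

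Reads limit what can be said of *Drsl1*, *Drsl2*, *Drsl3* and *Drsl6*, which were at or under the floor of 3 reads in all libraries.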
